A study of Mus musculus with 4 samples.

Results

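The genes described here are 7 genes of the corticosteroid response: the glucocorticoid receptor Nr3c1, the mineralocorticoid receptor Nr3c2, and Fkbp5, Tsc22d3, Zbtb16, Klf9 and Sgk1, whose transcription these receptors are known to raise. They were chosen by symbol, and all 7 were found among the 32285 genes listed in the files. They were read in 4 classes of cells from mouse hearts (macrophage-like, dendritic-cell-like, endothelial-like and fibroblast-like), and the question was whether the shift under a pressor infusion was present in every class. The cells came from a sort for CD64+ phagocytes of the heart, sequenced by droplet, with 1 library per group and 5 adult mice of both sexes pooled in each. The carboplatin AngII/PE group received carboplatin, a DNA-crosslinking chemotherapy drug, at 45 mg/kg, 2 times a week over 2 weeks, rested for 4 weeks and was then infused by minipump for 7 days with angiotensin II (AngII, 1.5 mg/kg per day) and PE (50 mg/kg per day). The PBS AngII/PE group had PBS in place of the drug and the same infusion, the carboplatin saline group had the drug and a saline pump, and the PBS saline group had PBS and a saline pump. All 4 groups therefore carried a subcutaneous pump and its implantation. No genotype, strain or exact age is named in the labels. Pooling means that the spread between mice was not measured.

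Corticosteroids bind receptors held by chaperones in the cytoplasm, and the bound receptor enters the nucleus and binds DNA at palindromic elements. The mineralocorticoid receptor binds both aldosterone and corticosterone, the main glucocorticoid of the mouse, and angiotensin II is the classical stimulus of aldosterone release. Both receptors are known in macrophages, endothelial cells and fibroblasts of the heart, where the glucocorticoid receptor is known for restraining inflammatory genes and the mineralocorticoid receptor for promoting inflammation and fibrosis. Neither corticosterone nor aldosterone was measured here, and the receptor proteins were not measured.

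The promoters of 3 induced genes are printed because they hold matches to the elements these receptors bind, or to an E-box. RefSeq promoter windows (build GRCm38.p6) were read for 5 of the 7 genes, with 12 transcription starts between them. No window was found for Zbtb16, and Nr3c1 is not reported here. Each sequence is the 250 bases before a start, read 5′ to 3′ on the gene's strand. Capitals mark matches to the full palindrome (GNACA and TGTNC with 3 bases between them), to its half-site AGAACA and to the E-box CACGTG, to which clock and other basic helix-loop-helix factors bind, each searched on both strands. The first window belongs to 1 of 6 Sgk1 starts (chr10:21993640-21993889, plus strand), the second to 1 of 3 Tsc22d3 starts (chrX:140600523-140600772, minus strand) and the third to the single Fkbp5 start (chr17:28486150-28486399, minus strand).
Sgk1: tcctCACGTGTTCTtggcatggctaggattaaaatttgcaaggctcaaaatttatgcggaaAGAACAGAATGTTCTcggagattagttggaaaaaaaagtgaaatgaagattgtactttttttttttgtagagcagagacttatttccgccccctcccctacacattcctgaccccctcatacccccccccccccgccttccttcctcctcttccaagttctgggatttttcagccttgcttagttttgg
Tsc22d3: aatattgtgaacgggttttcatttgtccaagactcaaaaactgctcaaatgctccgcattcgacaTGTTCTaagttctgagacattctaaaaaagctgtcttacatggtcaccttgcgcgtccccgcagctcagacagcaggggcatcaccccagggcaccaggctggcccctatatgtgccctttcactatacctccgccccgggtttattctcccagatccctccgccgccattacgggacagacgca
Fkbp5: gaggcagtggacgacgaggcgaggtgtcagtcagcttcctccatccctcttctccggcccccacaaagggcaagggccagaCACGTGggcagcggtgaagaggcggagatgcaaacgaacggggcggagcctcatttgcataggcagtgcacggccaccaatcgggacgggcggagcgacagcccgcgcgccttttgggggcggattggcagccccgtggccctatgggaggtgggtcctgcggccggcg
The Sgk1 window holds 1 full palindrome, made of 2 half-sites facing each other, and another half-site that overlaps an E-box. The other 5 Sgk1 windows hold no palindrome, and 2 of them hold 1 half-site each. The Tsc22d3 window holds 1 half-site, which the other 2 Tsc22d3 windows lack, and the Fkbp5 window 1 E-box and no half-site. Over all 32851 mouse promoter windows of the same length, 0.387% held the full palindrome, 16.1% the half-site and 6.02% the E-box. A match describes letters in the window only, the elements known for Fkbp5 lie in its introns, outside such windows, and 3′ counting does not tell which start a transcript used.

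On GRCm38, Fkbp5 spans chromosome 17 from 28399094 to 28517527 (minus strand, 118 kb) and Tsc22d3 chromosome X from 140539528 to 140600659 (minus, 61.1 kb). Zbtb16 spans chromosome 9 from 48654297 to 48836222 (minus, 182 kb) and Sgk1 chromosome 10 from 21882184 to 21999903 (plus, 118 kb). Klf9 spans chromosome 19 from 23141226 to 23168134 (plus, 26.9 kb), Nr3c1 spans 109 kb of chromosome 18, and Nr3c2 spans chromosome 8 from 76899442 to 77245012 (plus, 346 kb). All 7 are annotated as protein coding. Fkbp5 and Nr3c2 each overlap 1 listed gene on the opposite strand (Gm22146 and Gm10649).

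The libraries held between 62943457 and 95752612 UMIs (unique molecular identifiers, close to a count of molecules) in 5997 to 8012 barcodes, of which 49.4% to 70.8% passed the filters, with medians of 10593 to 12737 UMIs per kept cell. Pairs of libraries shared 9 to 17 cell barcodes. The macrophage-like class held 3921, 2127, 1017 and 1949 cells in the carboplatin AngII/PE, PBS AngII/PE, carboplatin saline and PBS saline libraries, the endothelial-like class 352, 304, 555 and 598, the dendritic-cell-like class 120, 157, 141 and 200, and the fibroblast-like class 92, 115, 70 and 75. The endothelial-like and fibroblast-like classes each showed all 10 of their defining markers in every library. Their clusters were named from these lists, and macrophage-like cells also had UMIs of all 10 of each, at far lower sums. Detection alone is therefore no support for the names. Endothelial-like and fibroblast-like cells are not cells the sort was set to keep, so they are those that passed it and not a sample of the heart. The macrophage-like class changed its make-up: a cluster with resident markers (Lyve1, Timd4, Cd163) held 47 and 90 of its cells in the carboplatin and PBS AngII/PE libraries, against 844 and 1779 in the carboplatin and PBS saline libraries. A cluster led by Fcrls and Ccl8 held 40.2% and 29.6% of the class in the carboplatin and PBS AngII/PE libraries, against 2.95% and 1.69% in the carboplatin and PBS saline libraries. When cells were clustered more finely, the endothelial-like class changed too. A cluster of it held 85 and 88 cells in the carboplatin and PBS AngII/PE libraries, against 432 and 532 in the matching saline libraries. Another held 230 and 192, against 22 and 11. Median UMIs per endothelial-like cell were 10026 and 9909 under AngII/PE after carboplatin and PBS, against 6412 and 5869 under saline. A cluster with a median of 1603 UMIs was kept in this class. Levels are given in CPM, a gene's share of all UMIs of a class in a library. These sums do not tell fewer expressing cells from less RNA per cell. The share of cells with each gene is not reported here. With 1 library per group there is no test, and each 95% interval covers counting error only. A value is called higher or lower where the ratio of 2 libraries was at least 1.5-fold and they held at least 20 UMIs together.

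Under AngII/PE, the transcripts of both receptors were lower in nearly every class, while the receptors' target genes split by cell class. Nr3c1 was called lower in all 4 classes in both comparisons, though not stably in dendritic-cell-like cells after PBS. Fkbp5 was called higher in 3 classes after carboplatin and in all 4 after PBS. The largest rises of Tsc22d3 and Zbtb16 were in endothelial-like cells. Of the 28 gene-by-class values, 6 were called higher and 10 lower after carboplatin, and 10 higher and 9 lower after PBS.

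These counts were read against all genes whose mean in the class reached 10 CPM or more. In macrophage-like cells 1 of the 7 genes was called higher and 2 lower after carboplatin, where 7.54% of all genes were higher and 7.56% lower. After PBS 3 were higher and 2 lower, beside 8.23% and 9.01% of all genes. In endothelial-like cells 3 were higher and 2 lower in each comparison, where all genes gave 12.4% and 10.3% after carboplatin and 10.9% and 11.1% after PBS. In fibroblast-like cells 1 was higher and 2 lower after carboplatin, beside 14.0% and 17.7% of all genes, and 3 were higher and 2 lower after PBS, beside 13.9% and 14.7%. In dendritic-cell-like cells 1 was higher and 4 lower after carboplatin, beside 12.7% and 19.9%, and 1 was higher and 3 lower after PBS, beside 8.96% and 9.36%. The background leaves out Nr3c2 in dendritic-cell-like cells, whose mean was under 10 CPM. The 2 comparisons use different libraries.

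**Figure D1:**
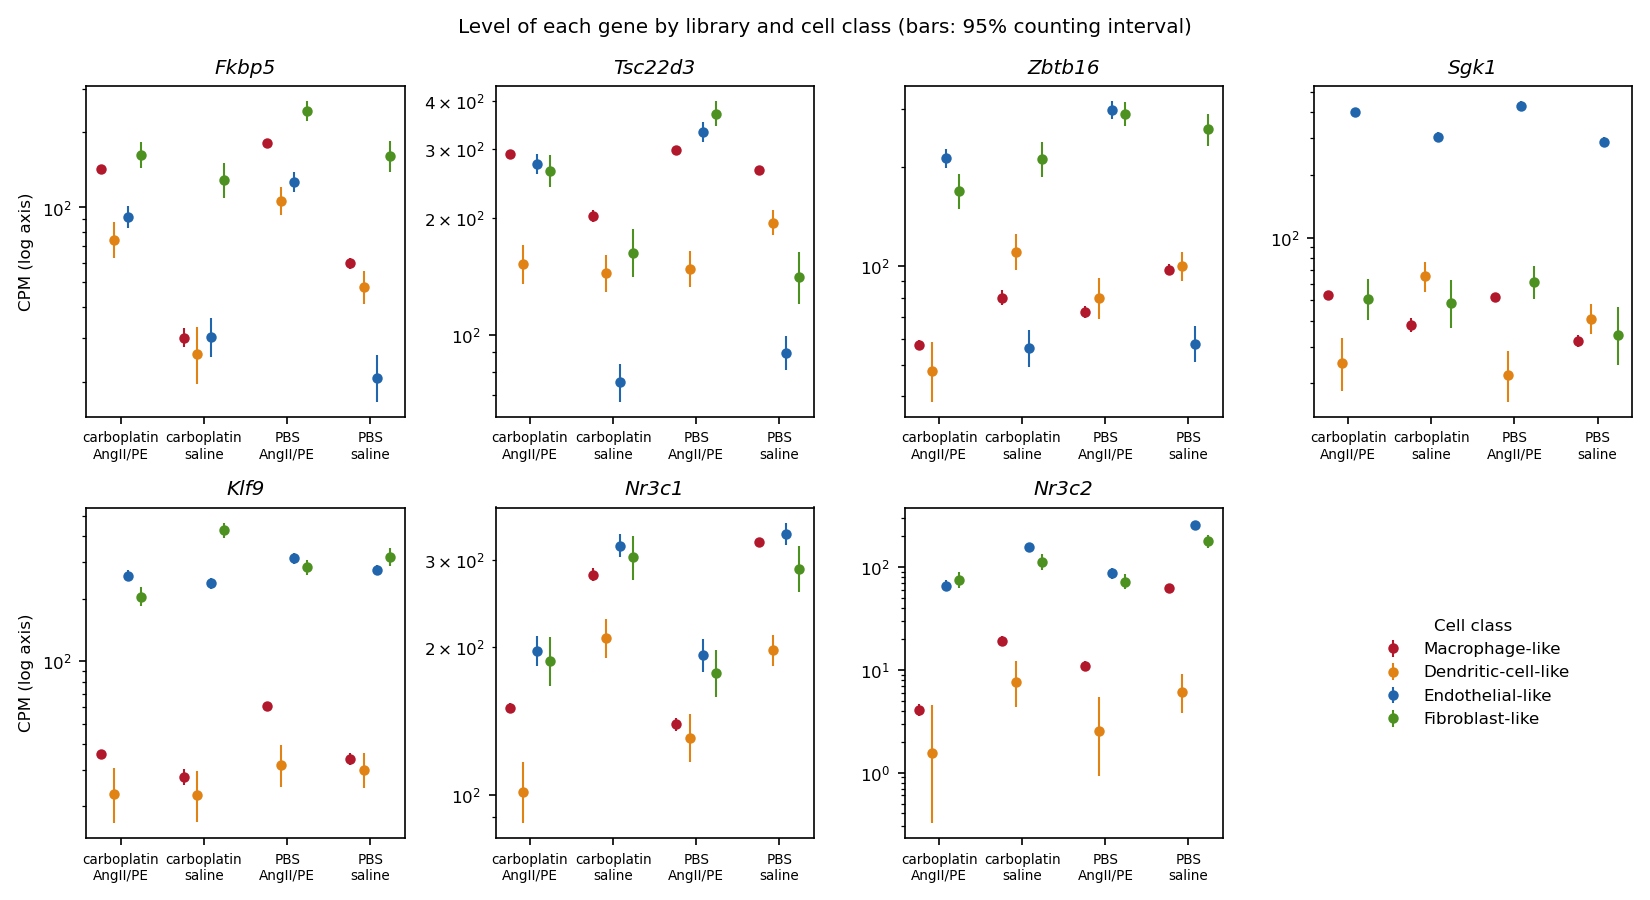
Level of each gene in CPM on a log axis (a separate scale in each panel) in the 4 libraries; points are cell classes and bars 95% counting intervals. Nr3c1 is lower in both AngII/PE libraries in every class, whereas Zbtb16 is higher there in endothelial-like cells (212 and 299 CPM under AngII/PE, against 56.2 and 57.9 CPM under saline) and lower in macrophage-like cells.

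Nr3c1, the receptor for glucocorticoids, had 150.3 and 139 CPM in macrophage-like cells of the carboplatin and PBS AngII/PE libraries, against 280.3 and 326 CPM in the carboplatin and PBS saline libraries. The 2 infused libraries lay at about the same level and both below the saline libraries. The ratio of AngII/PE to saline was 0.536 (95% interval 0.518 to 0.556) after carboplatin and 0.426 (0.411 to 0.442) after PBS. Endothelial-like cells had 196 and 192 CPM in the carboplatin and PBS AngII/PE libraries, against 321 and 339 CPM in the matching saline libraries, with ratios of 0.611 after carboplatin and 0.567 after PBS. Fibroblast-like cells had 187 and 177 CPM under AngII/PE after carboplatin and PBS, against 304 and 288 CPM under saline, with ratios of 0.615 and 0.614. Infused and saline libraries did not overlap in these 3 classes. In dendritic-cell-like cells the values were 101 and 131 CPM under AngII/PE after carboplatin and PBS, against 208 and 197 CPM under saline. The ratio there was 0.486 after carboplatin and 0.664 (0.580 to 0.760) after PBS. The second was not stable: with each cell thinned to 2000 UMIs its log2 ratio was 0.047, against -0.59 with all UMIs. Its call held in 7 of 13 alternative settings. In cells called female or male from sex-linked transcripts it was -0.54 and -0.51, within 1.5-fold. Fibroblast-like cells after PBS were within that limit in both too (-0.58 and -0.56). After carboplatin, female-called endothelial-like and fibroblast-like cells were also within it (-0.50 and -0.42).

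Nr3c2, the receptor for aldosterone and also for corticosterone, had 4.07 and 10.9 CPM in macrophage-like cells of the carboplatin and PBS AngII/PE libraries, against 19.2 and 62.4 CPM in the carboplatin and PBS saline libraries. The 4 libraries were all apart, with the level lower after carboplatin under either pump. The ratio of AngII/PE to saline was 0.212 (0.178 to 0.252) after carboplatin and 0.175 (0.156 to 0.196) after PBS. Endothelial-like cells, in which the gene is known to act on vascular tone and inflammation, had 66.0 and 87.0 CPM under AngII/PE after carboplatin and PBS, against 158 and 256 CPM under saline. Their ratios were 0.418 (0.360 to 0.483) after carboplatin and 0.340 (0.298 to 0.387) after PBS. Fibroblast-like cells had 75.5 and 72.2 CPM under AngII/PE after carboplatin and PBS, against 112 and 178 CPM under saline. There the ratio was 0.671 after carboplatin, short of the 1.5-fold limit, and 0.406 after PBS, which shrank to a log2 ratio of -0.45 in cells thinned to 2000 UMIs. In dendritic-cell-like cells the gene was close to the counting floor, with 3 and 6 UMIs under AngII/PE after carboplatin and PBS, against 17 and 22 UMIs under saline. The ratio was 0.207 (0.0388 to 0.714) after carboplatin and 0.418 (0.139 to 1.06) after PBS, so the second interval includes 1.

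Fkbp5 encodes a co-chaperone that lowers the receptor's affinity for its ligand and is itself induced by the receptor, a short negative feedback loop. It had 142 and 182 CPM in macrophage-like cells of the carboplatin and PBS AngII/PE libraries, against 30.0 and 59.7 CPM in the carboplatin and PBS saline libraries. Both infused libraries lay above both saline libraries, with ratios of 4.74 (4.33 to 5.19) after carboplatin and 3.04 (2.88 to 3.22) after PBS. Endothelial-like cells had 91.7 and 127 CPM under AngII/PE after carboplatin and PBS, against 30.3 and 20.8 CPM under saline, with ratios of 3.03 (2.47 to 3.74) and 6.10 (4.83 to 7.78). In dendritic-cell-like cells the level was 74.2 and 106 CPM under AngII/PE after carboplatin and PBS, against 25.7 and 48.0 CPM under saline, with ratios of 2.89 (2.11 to 3.99) and 2.21 (1.82 to 2.70). Over all cells these 3 classes were called higher after both pretreatments. After PBS, female-called cells had a log2 ratio of 0.39 in the macrophage-like class, within 1.5-fold, and of -0.31 in the dendritic-cell-like class, where the pools overlapped. Fibroblast-like cells, where Fkbp5 was highest under saline, had 163 and 244 CPM under AngII/PE after carboplatin and PBS, against 129 and 161 CPM under saline. The fibroblast-like ratio was 1.26 (1.03 to 1.55) after carboplatin, within 1.5-fold, and 1.52 (1.28 to 1.81) after PBS, and the second turned round to a log2 ratio of -0.18 with cells thinned to 2000 UMIs.

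The rise of Fkbp5 was also present in some cells outside the 4 classes. B-cell-like cells had 108 and 151 CPM under AngII/PE after carboplatin and PBS, against 31.9 and 55.1 CPM under saline, and neutrophil-like cells 229.8 and 249 CPM under AngII/PE, against 53.4 and 57.0 CPM under saline. Cycling cells, named by cell-cycle genes and not by cell type, had 167 and 203 CPM under AngII/PE, against 44.3 and 69.4 CPM under saline. Neutrophil-like values rest on 6 to 54 UMIs per library. The infused libraries were above their saline partners in each of these sets of cells. In the main B-cell-like, the neutrophil-like and the cycling cluster, all 10 macrophage markers reached at least 25% of their level over all cells. The part of macrophage RNA in these Fkbp5 values was not tested, nor was how many of the cycling cells were macrophages. Other classes outside the 4 are not reported here.

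Tsc22d3 encodes GILZ, a leucine zipper protein through which glucocorticoids restrain inflammatory transcription. In endothelial-like cells it had 274 and 333 CPM under AngII/PE after carboplatin and PBS, against 75.3 and 89.8 CPM under saline, with ratios of 3.64 (3.21 to 4.15) and 3.71 (3.30 to 4.18). Fibroblast-like cells had 264 and 371 CPM under AngII/PE after carboplatin and PBS, against 163 and 141 CPM under saline, with ratios of 1.62 (1.37 to 1.93) and 2.64 (2.23 to 3.14). Both classes had separate infused and saline libraries. Macrophage-like cells, which under saline already held more Tsc22d3 than the endothelial-like and fibroblast-like cells, had 291 and 298 CPM under AngII/PE after carboplatin and PBS, against 202 and 265 CPM under saline. Their ratios of 1.44 and 1.13 stayed within 1.5-fold, though after carboplatin 4 of 13 alternative settings passed that limit, with log2 ratios up to 0.65. Dendritic-cell-like cells had 152 and 148 CPM under AngII/PE after carboplatin and PBS, against 144 and 194 CPM under saline, with ratios of 1.05 and 0.761, so their infused and saline libraries overlapped.

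Zbtb16 encodes PLZF, a zinc finger repressor that is strongly induced by glucocorticoids in many human and mouse cells. In endothelial-like cells it had 212 and 299 CPM under AngII/PE after carboplatin and PBS, against 56.2 and 57.9 CPM under saline. The ratios were 3.78 (3.27 to 4.39) and 5.16 (4.48 to 5.97). Macrophage-like cells had 57.3 and 72.3 CPM under AngII/PE after carboplatin and PBS, against 79.9 and 97.2 CPM under saline, with ratios of 0.717 and 0.743, within 1.5-fold and on the other side of 1. Dendritic-cell-like cells had 47.8 and 79.8 CPM under AngII/PE after carboplatin and PBS, against 110.4 and 99.6 CPM under saline, with a ratio of 0.433 (0.337 to 0.552) after carboplatin and 0.802 after PBS. Fibroblast-like cells had 169 and 289.9 CPM under AngII/PE after carboplatin and PBS, against 211 and 260.3 CPM under saline, and overlapped. The rise was called in 1 of the 4 classes.

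Sgk1 encodes a kinase that raises sodium channel activity in the kidney and is induced by both receptors. It was highest in endothelial-like cells, with 400.4 and 429 CPM under AngII/PE after carboplatin and PBS, against 305 and 287 CPM under saline. The ratios there were 1.31 (1.22 to 1.42) after carboplatin and 1.50 (1.39 to 1.62) after PBS, the second just short of the limit before rounding. Macrophage-like cells had 53.3 and 52.0 CPM under AngII/PE after carboplatin and PBS, against 38.3 and 32.1 CPM under saline, with ratios of 1.39 and 1.62 (1.49 to 1.76). Both infused libraries lay above both saline libraries in these 2 classes. Dendritic-cell-like cells went the other way, with 24.9 and 21.8 CPM under AngII/PE after carboplatin and PBS, against 65.2 and 40.9 CPM under saline, and ratios of 0.382 (0.270 to 0.533) and 0.535 (0.382 to 0.738). Fibroblast-like cells had 50.7 and 61.2 CPM under AngII/PE after carboplatin and PBS, against 48.4 and 34.1 CPM under saline. Their ratio was 1.79 (1.25 to 2.63) after PBS, from 116 and 41 UMIs, and 1.05 after carboplatin.

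Klf9 encodes a Krüppel-like factor induced by glucocorticoids that also takes part in clock output. Macrophage-like cells had 35.8 and 60.8 CPM under AngII/PE after carboplatin and PBS, against 27.8 and 33.8 CPM under saline, with ratios of 1.29 (1.16 to 1.42) and 1.80 (1.66 to 1.95). Endothelial-like cells had 259 and 314 CPM under AngII/PE after carboplatin and PBS, against 238 and 276 CPM under saline, and the ratios of 1.09 and 1.14 were within 1.5-fold. The level in endothelial-like cells therefore moved little while Fkbp5, Tsc22d3 and Zbtb16 rose in the same cells. Fibroblast-like cells had 205 and 284 CPM under AngII/PE after carboplatin and PBS, against 428 and 319 CPM under saline, with ratios of 0.479 (0.417 to 0.551) and 0.888. Dendritic-cell-like cells had 22.8 and 31.5 CPM under AngII/PE after carboplatin and PBS, against 22.6 and 29.9 CPM under saline, with ratios of 1.01 and 1.05.

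**Figure D2:**
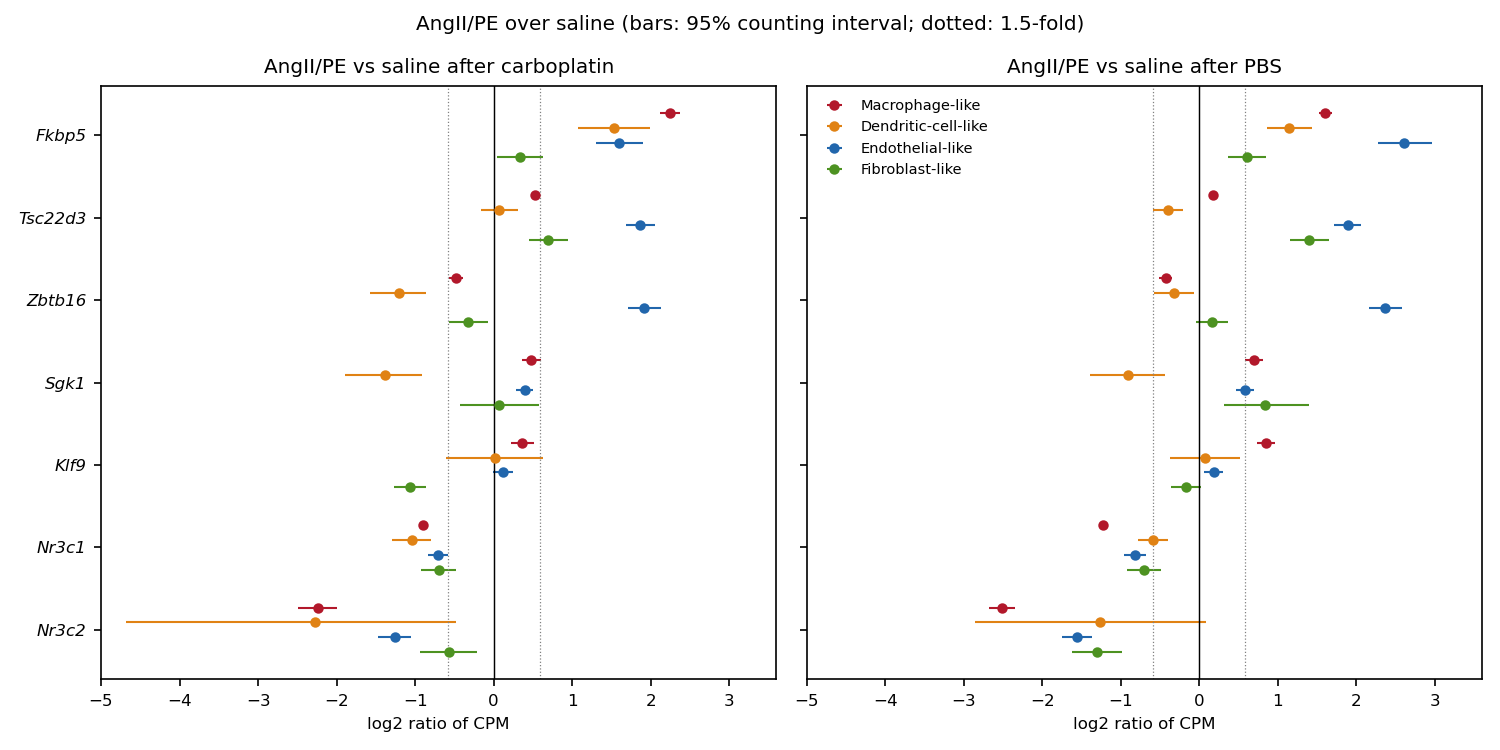
log2 ratio of CPM, AngII/PE over saline, after carboplatin (left) and after PBS (right), for the 7 genes in the 4 classes; bars are 95% counting intervals and dotted lines mark 1.5-fold. Fkbp5 lies right of 0 and both receptors left of 0 in every class, while Zbtb16 lies far right in endothelial-like cells and left of 0 in macrophage-like and dendritic-cell-like cells.

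The order of the classes changed with the infusion for some genes. Tsc22d3 was lowest in endothelial-like cells of both saline libraries, whereas in the carboplatin AngII/PE library their interval overlapped those of macrophage-like and fibroblast-like cells. Zbtb16 was likewise lowest in endothelial-like cells of both saline libraries and highest there in both AngII/PE libraries, where its interval overlapped that of fibroblast-like cells after PBS and not after carboplatin. Sgk1 was highest in endothelial-like cells in all 4 libraries, with no interval overlapping. Nr3c2 was lowest in dendritic-cell-like cells in all 4 libraries, and its interval overlapped that of macrophage-like cells in the carboplatin AngII/PE library.

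Because the macrophage-like class changed its make-up, the genes were read within each of its 6 clusters, which had been formed from the same cells. The endothelial-like class was not read within clusters. The part of its make-up and depth in its rises of Fkbp5, Tsc22d3 and Zbtb16 was therefore not tested in this way. Outside the resident and MHC class II clusters, each macrophage-like cluster held only 9 to 33 cells in a saline library. The share of all genes called within a cluster is not given, so the counts of clusters have no background beside them. Fkbp5 was called higher under AngII/PE in 6 of 6 clusters in both comparisons. In the cluster with resident markers it had 234 and 276 CPM under AngII/PE after carboplatin and PBS, against 29.8 and 60.9 CPM under saline, and in the cluster with MHC class II markers 129 and 124 CPM under AngII/PE, against 15.9 and 35.0 CPM under saline. Tsc22d3, within 1.5-fold over the whole class, was called higher in 4 of 6 clusters after carboplatin and 2 of 6 after PBS. In the cluster with resident markers it had 459.7 and 448 CPM under AngII/PE after carboplatin and PBS, against 215 and 271 CPM under saline. Klf9 was called higher in 4 clusters after carboplatin and 5 after PBS.

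The receptors differed from this. Nr3c1 was called lower in 2 of 6 clusters and higher in 1 after carboplatin, and lower in 3 of 6 after PBS. In the cluster with resident markers it had 228 and 223 CPM under AngII/PE after carboplatin and PBS, against 302 and 341 CPM under saline, so after carboplatin the fall there was within 1.5-fold. In the MHC class II cluster it had 137 and 138 CPM under AngII/PE after carboplatin and PBS, against 164 and 147 CPM under saline. Among the 6 clusters, Nr3c1 was highest in the resident cluster in all 4 libraries, and that cluster held most macrophage-like cells of the saline libraries alone. Nr3c2 was called lower in 4 clusters and higher in 0 after carboplatin, with 2 not read, whereas after PBS it was called lower in 1 and higher in 2, with 1 not read and 1 or 2 UMIs in the PBS saline library behind each higher call. The fall over the whole class after PBS was thus called in 1 cluster only. That was not the cluster with resident markers, which held 1717 of the 1744 macrophage-like Nr3c2 UMIs in the PBS saline library, at 67.7 CPM. The resident cluster had 48.6 CPM in the PBS AngII/PE library, from 58 UMIs, so its ratio after PBS was within 1.5-fold. In the carboplatin AngII/PE library it had 0 UMIs in 47 cells, against 20.6 CPM in the carboplatin saline library, and the 95% counting interval of that 0 reaches 5.33 CPM.

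**Figure D3:**
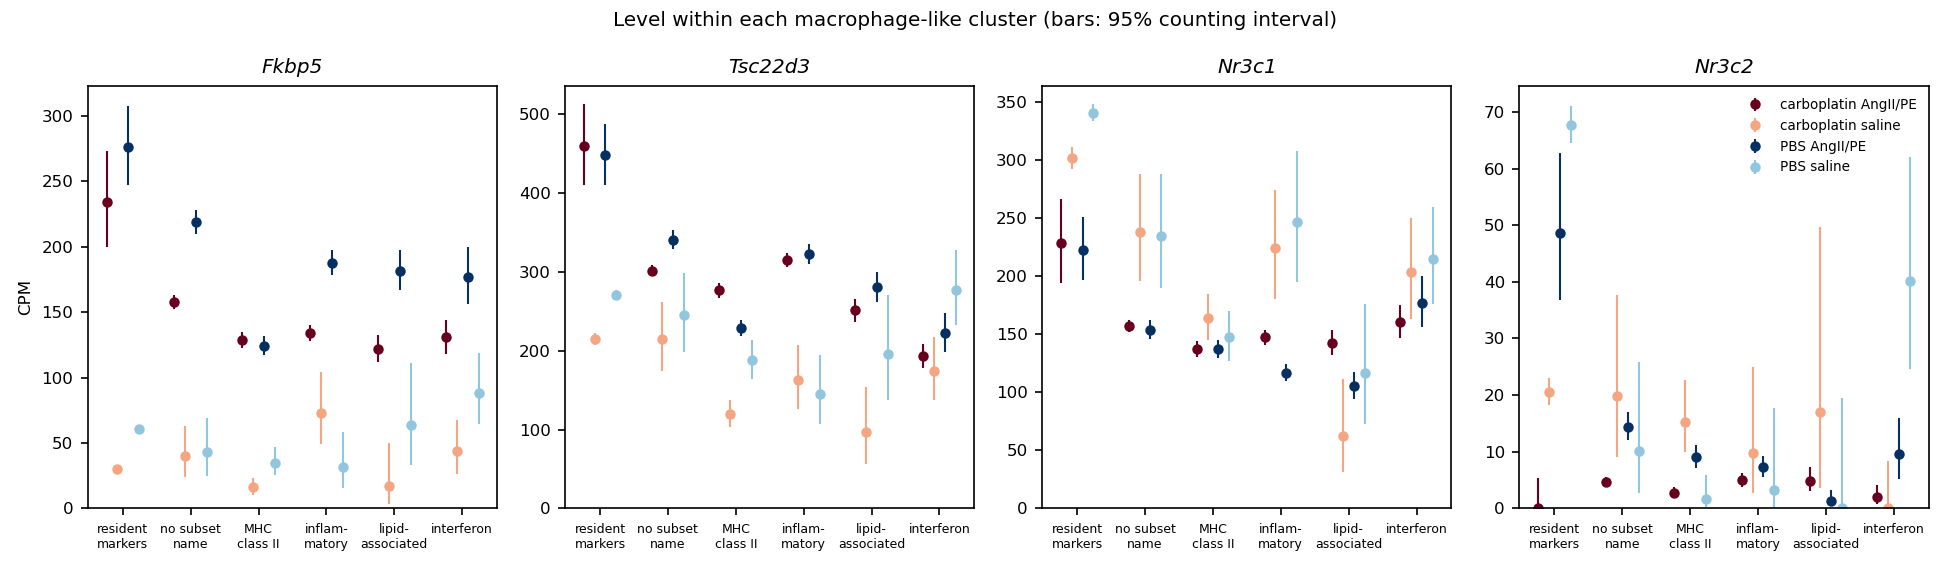
Level in CPM of 4 genes within the 6 macrophage-like clusters; points are libraries and bars 95% counting intervals. For Fkbp5 both AngII/PE libraries lie above both saline libraries in every cluster, whereas for Nr3c1 they lie clearly below in the resident cluster and close to them in the MHC class II cluster.

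Since each library pooled both sexes, cells called female or male from sex-linked transcripts come from different mice and give 2 pools per library. Of 27 gene-by-class values read in both sexes, 20 had pools that did not overlap between AngII/PE and saline after carboplatin, and 20 after PBS. Over all genes the same reading in macrophage-like cells gave 41.3% higher and 33.3% lower without overlap after carboplatin, and 32.3% higher and 31.0% lower after PBS. The shares after carboplatin were 25.8% higher and 31.2% lower in dendritic-cell-like cells, 28.9% and 31.4% in endothelial-like cells, and 23.7% and 25.5% in fibroblast-like cells. After PBS they were 21.0% higher and 24.4% lower in dendritic-cell-like cells, 26.7% and 29.0% in endothelial-like cells, and 21.4% and 23.2% in fibroblast-like cells. The 2 sexes pointed opposite ways for 5 of the 27 values after carboplatin and for 6 after PBS. Nr3c1 in macrophage-like cells was close in both pools of each library. It had 155 CPM in female-called and 148 CPM in male-called cells of the carboplatin AngII/PE library, against 282 CPM in both kinds of cell of the carboplatin saline library. After PBS it had 153 and 134 CPM in female-called and male-called cells under AngII/PE, against 327 and 331 CPM under saline. Nr3c2 in endothelial-like cells had log2 ratios after carboplatin of -1.34 (female-called) and -1.33 (male-called), and after PBS of -1.60 and -1.68. In macrophage-like cells Nr3c2 fell in both pools after PBS too, although the PBS saline library had 87.7 CPM in female-called and 37.7 CPM in male-called cells.

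Several induced genes differed between these pools. Fkbp5 in macrophage-like cells had 76.4 CPM in female-called and 225 CPM in male-called cells of the PBS AngII/PE library, against 58.3 and 52.9 CPM in those of the PBS saline library. After PBS the log2 ratio of the female-called cells was 0.39, within 1.5-fold, and that of the male-called cells 2.09. After carboplatin it had 126 and 156 CPM in female-called and male-called cells under AngII/PE, against 36.3 and 19.8 CPM under saline, a rise in both. Klf9 in macrophage-like cells had 27.7 CPM in female-called and 75.6 CPM in male-called cells under AngII/PE after PBS, against 42.8 and 22.8 CPM under saline, so its log2 ratios were -0.63 and 1.73. The call of a higher Klf9 in that class rested on male-called cells. Zbtb16 in endothelial-like cells had 151 and 349 CPM in female-called and male-called cells under AngII/PE after PBS, against 111 and 19.1 CPM under saline, with log2 ratios of 0.44 and 4.19. After carboplatin it had 137 and 296 CPM under AngII/PE, against 63.0 and 56.9 CPM under saline, and rose in both. Tsc22d3 in endothelial-like cells rose in both kinds of cell in both comparisons, with log2 ratios from 1.36 to 2.42. In macrophage-like cells after PBS, Tsc22d3 had log2 ratios of -0.57 (female-called) and 0.76 (male-called), which point opposite ways, and the infused and saline pools overlapped. In dendritic-cell-like cells, Fkbp5 had log2 ratios after carboplatin of 0.34 (female-called) and 3.18 (male-called), and after PBS of -0.31 and 1.16. How many mice of each sex a pool held is not given, so sex and single animals cannot be told apart.

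**Figure D4:**
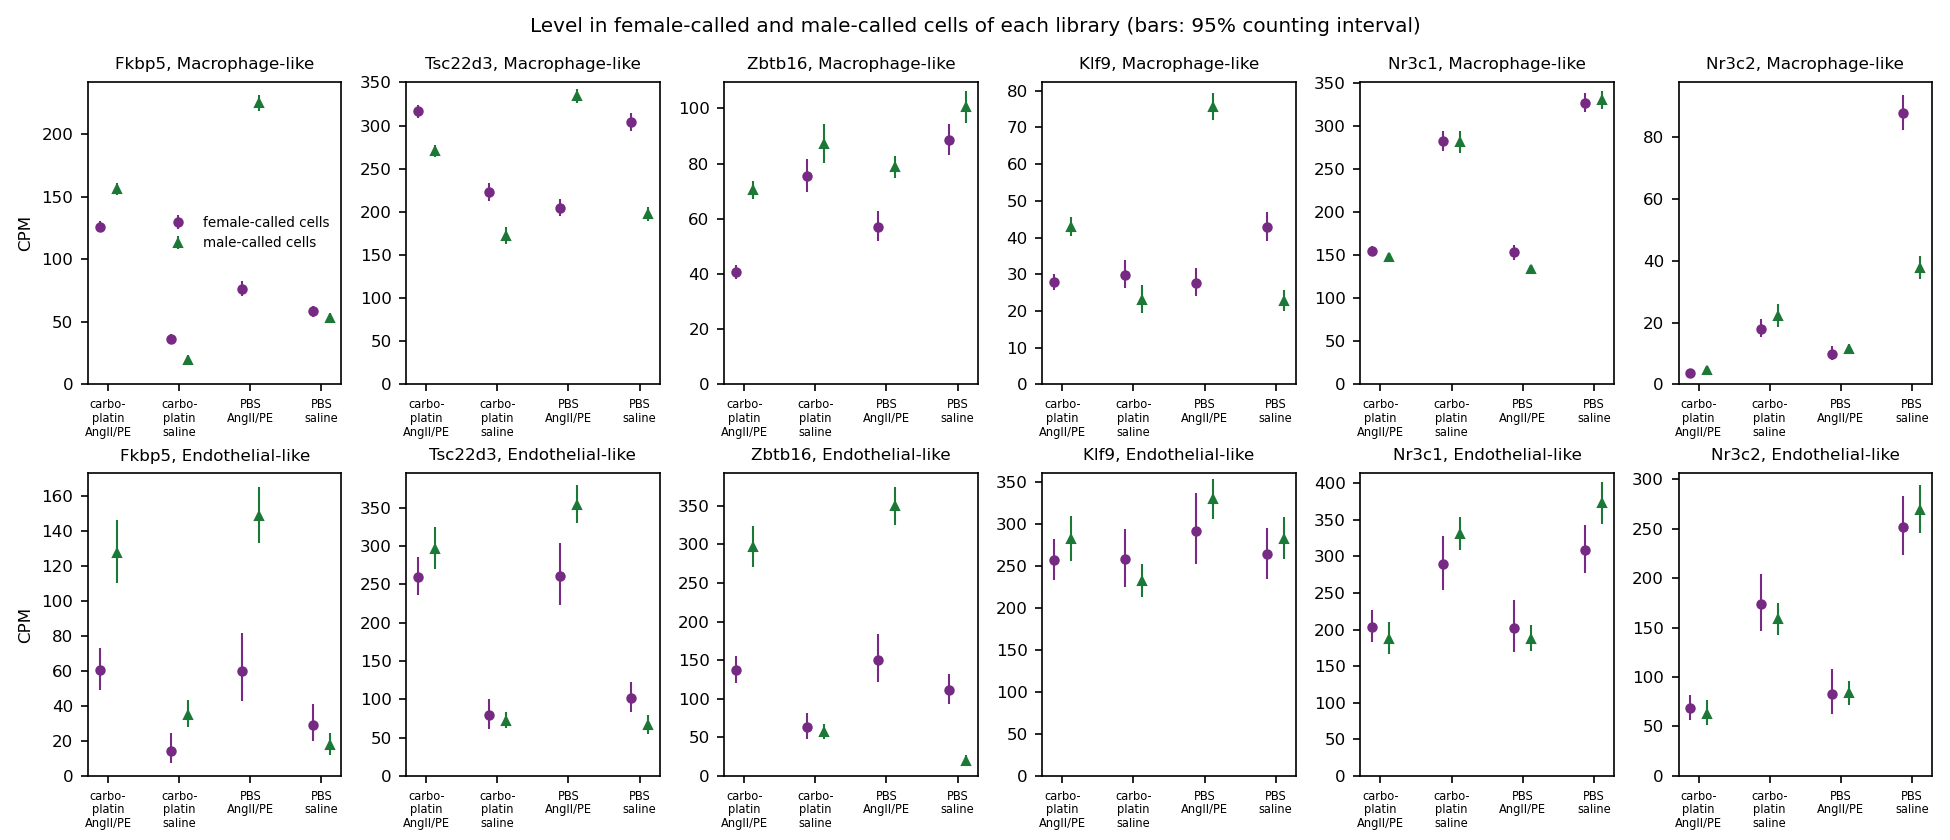
Level in CPM of 6 genes in female-called (circles) and male-called (triangles) cells of each library, for macrophage-like (top) and endothelial-like (bottom) cells; bars are 95% counting intervals. Nr3c1 in macrophage-like cells is close in both pools of each library, whereas Fkbp5, Klf9 and Zbtb16 in the PBS AngII/PE library are higher in male-called cells.

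The carboplatin comparison held fewer calls. Under AngII/PE 0 of 27 gene-by-class values were called higher and 4 lower, and under saline 1 of 28 was higher and 5 lower. In macrophage-like cells 2 genes were lower under AngII/PE, beside 1.0% of all genes lower and 0.436% higher, and 2 were lower under saline, beside 2.11% lower and 1.66% higher. Nr3c2 was lower in that class under both pumps, with 4.07 CPM in the carboplatin AngII/PE library, against 10.9 CPM in the PBS AngII/PE library (ratio 0.373, 0.315 to 0.442). Under saline it had 19.2 CPM in the carboplatin library, against 62.4 CPM in the PBS library (ratio 0.308, 0.273 to 0.347). This fall lay within the resident cluster too, which had 20.6 CPM in the carboplatin saline library, against 67.7 CPM in the PBS saline library. Under saline the log2 ratio of carboplatin to PBS was -2.28 in female-called macrophage-like cells and -0.77 in male-called ones.

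Fkbp5 in macrophage-like cells under saline had 30.0 CPM after carboplatin, against 59.7 CPM after PBS (ratio 0.503, 0.455 to 0.556), and it was lower in both female-called and male-called cells. The other call in macrophage-like cells was Klf9 under AngII/PE, with 35.8 CPM after carboplatin, against 60.8 CPM after PBS (ratio 0.589). That call was not seen in female-called cells, with 27.9 CPM after carboplatin, against 27.7 CPM after PBS. In endothelial-like cells 0 genes were called under AngII/PE, beside 3.47% of all genes higher and 2.68% lower, and under saline Nr3c2 alone was lower (ratio 0.618, 0.560 to 0.682), beside 3.03% higher and 4.05% lower. In fibroblast-like cells Zbtb16 was lower under AngII/PE (ratio 0.583), beside 5.07% higher and 8.02% lower, and Nr3c2 under saline (ratio 0.632), beside 7.81% higher and 7.8% lower. In male-called fibroblast-like cells that Nr3c2 ratio turned round (log2 0.38). In dendritic-cell-like cells Zbtb16 was lower under AngII/PE (ratio 0.598), beside 3.83% higher and 7.79% lower. Under saline Fkbp5 was lower there (ratio 0.536) and Sgk1 higher (ratio 1.59, 1.26 to 2.02), beside 4.42% higher and 3.25% lower. In female-called cells the log2 ratio of Fkbp5 there was 0.20.

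**Figure D5:**
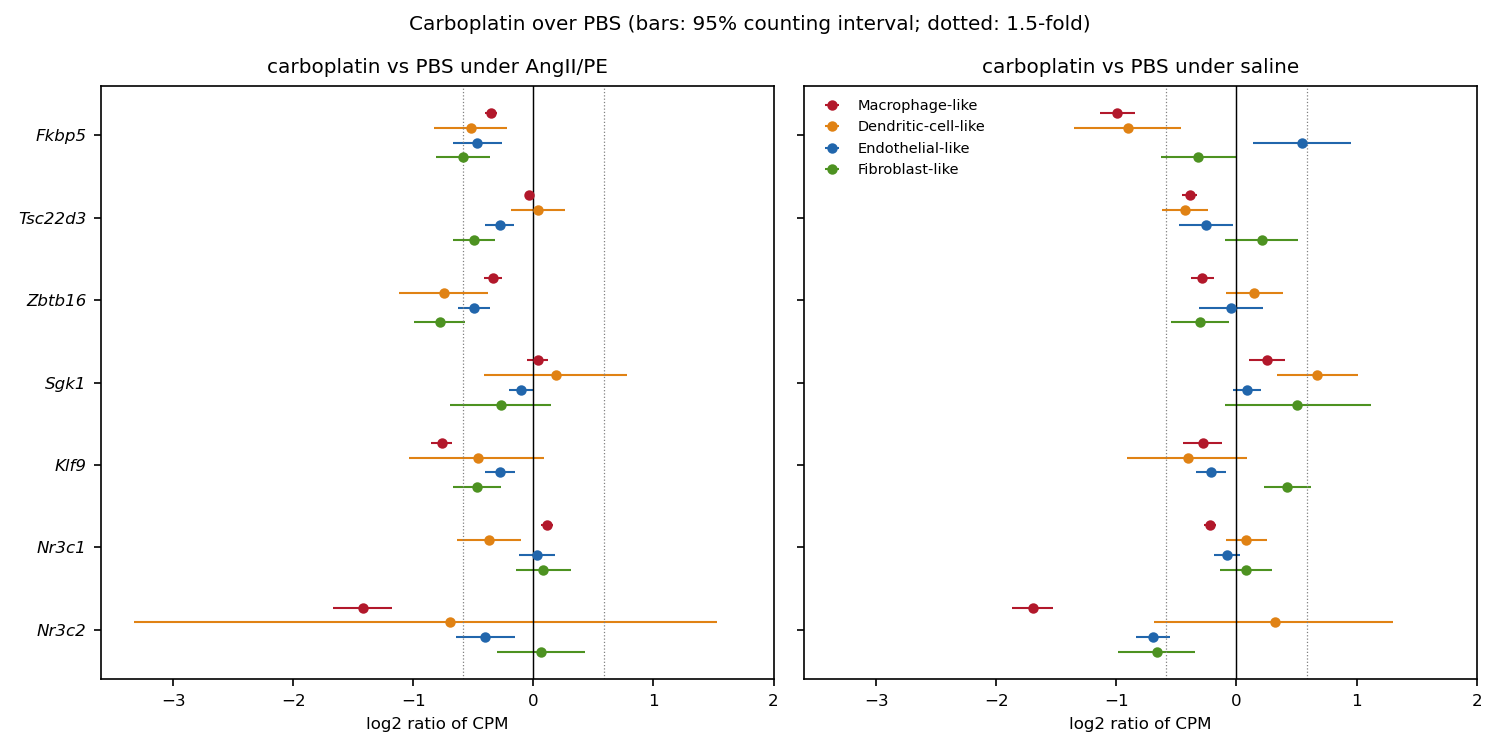
log2 ratio of CPM, carboplatin over PBS, under AngII/PE (left) and under saline (right); bars are 95% counting intervals and dotted lines mark 1.5-fold. Nr3c2 in macrophage-like cells lies furthest left in both panels among values with narrow intervals, and most other points lie between the dotted lines.

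Other genes of the pathway were read from lists, whose counts stand beside the share of all genes called in the same class and comparison, given above. Of 23 further glucocorticoid-induced genes compared in macrophage-like cells, 5 were called higher and 1 lower after carboplatin, and 4 higher and 3 lower after PBS, with median log2 ratios of 0.10 and 0.03, beside 0.04 and 0.00 over all genes. Ddit4, an inhibitor of mTORC1, had 14.0 and 23.7 CPM under AngII/PE after carboplatin and PBS, against 5.63 and 6.18 CPM under saline. Tgm2, a transglutaminase, had 39.7 and 41.6 CPM under AngII/PE, against 16.3 and 8.83 CPM under saline. Per1 and Anxa1, the gene of the anti-inflammatory protein annexin A1, were the other genes called higher in both comparisons. Cd163, a haemoglobin scavenger receptor that also marks the resident cluster, had 32.0 and 67.0 CPM under AngII/PE after carboplatin and PBS, against 42.4 and 356 CPM under saline, so it was called lower after PBS and within 1.5-fold after carboplatin. Cables1 was lower in both comparisons (log2 ratio -0.82 after carboplatin and -1.36 after PBS).

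In endothelial-like cells the same list had 6 genes higher and 1 lower of 24 after carboplatin and 9 higher and 3 lower after PBS (medians 0.25 and 0.03, beside -0.01 and -0.03 over all genes). Ddit4 had 115 and 188 CPM there under AngII/PE after carboplatin and PBS, against 24.5 and 35.7 CPM under saline. Map3k6, Anxa1, Cebpd and Per1 were also higher in both comparisons, with Map3k6 at log2 ratios of 1.90 and 2.35. In fibroblast-like cells the balance was the reverse, with 3 higher and 11 lower of 23 after carboplatin and 3 higher and 10 lower after PBS (medians -0.58 and -0.36, beside -0.05 and -0.04). Dusp1, Zfp36 and Errfi1, which are also early genes of tissue dissociation, were among those lower there. In dendritic-cell-like cells 4 were higher and 3 lower of 23 after carboplatin, and 3 higher and 4 lower after PBS.

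Of 12 inflammatory genes that glucocorticoids are known to repress, 3 were higher and 2 lower in macrophage-like cells after carboplatin, and 5 higher and 2 lower after PBS (medians -0.10 and 0.08, beside 0.04 and 0.00 over all genes). Over all genes 7.54% were higher and 7.56% lower after carboplatin, and 8.23% and 9.01% after PBS. Ccl5, a T-cell-attracting chemokine, had 47.3 and 70.6 CPM under AngII/PE after carboplatin and PBS, against 23.6 and 10.4 CPM under saline, and Ccl3 was also higher in both. Cxcl10 was higher after carboplatin (log2 ratio 0.66) and after PBS (1.65). Mmp9, a gelatinase that neutrophils also express, had 0.670 and 0.587 CPM under AngII/PE, against 9.38 and 32.5 CPM under saline, and Il1b had a log2 ratio of -0.89 after carboplatin and -0.64 after PBS. The inflammatory genes thus moved both ways. In dendritic-cell-like cells 5 of 11 were higher and 1 lower after carboplatin, and 6 higher and 1 lower after PBS, with Il1b at log2 ratios of 1.96 and 1.67. Endothelial-like cells had 3 of 10 higher and 1 lower after carboplatin and 2 higher and 1 lower after PBS, where 10.3% and 11.1% of all genes were lower, so 1 of 10 lower is near the background. Fibroblast-like cells had 3 of 6 higher and 2 lower after carboplatin and 3 higher and 3 lower after PBS.

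The receptor's chaperones and cofactors had 0 of 18 genes higher and 1 lower in macrophage-like cells after carboplatin, and 0 higher and 3 lower after PBS (medians -0.14 and -0.27, beside 0.04 and 0.00 over all genes). Over all genes 7.56% were lower after carboplatin and 9.01% after PBS, so 1 of 18 lower is no more than the background. Hsp90aa1, a heat-inducible chaperone that holds the unbound receptor, had 290.2 and 273 CPM under AngII/PE after carboplatin and PBS, against 581 and 739 CPM under saline. Hsp90ab1 and the co-chaperone Ptges3 had log2 ratios of -0.95 and -0.76 after PBS. Fkbp4, the co-chaperone that acts against Fkbp5 on the receptor, had a log2 ratio of 0.45 after carboplatin, within 1.5-fold. In fibroblast-like cells 1 was higher and 2 lower after carboplatin and 0 higher and 6 lower after PBS, in endothelial-like cells 1 higher and 0 lower and 0 higher and 1 lower, and in dendritic-cell-like cells 2 higher and 3 lower and 0 of either.

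Of the genes of corticosteroid metabolism and transport, 3 could be compared in macrophage-like cells (Abcb1b, Srd5a3 and H6pd), with 0 called in either comparison. In fibroblast-like cells Hsd11b1, whose enzyme regenerates active corticosterone inside cells, had 46.4 and 51.7 CPM under AngII/PE after carboplatin and PBS, against 262 and 143 CPM under saline. There 0 were higher and 2 lower of 4 after carboplatin, and 2 higher and 2 lower after PBS. In endothelial-like cells 0 were higher and 1 lower of 3 after carboplatin, and 1 higher and 2 lower after PBS, and in dendritic-cell-like cells 0 of 2 were called.

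Of 7 mineralocorticoid targets compared in macrophage-like cells, 3 were higher and 0 lower in each comparison (medians 0.16 after carboplatin and 0.06 after PBS). Spp1, the matrix protein osteopontin that also marks the lipid-associated cluster, had 371 and 295 CPM under AngII/PE after carboplatin and PBS, against 45.7 and 36.1 CPM under saline. Usp2, a deubiquitinase that is also a clock output gene, had 23.3 and 24.3 CPM under AngII/PE, against 9.08 and 7.01 CPM under saline, and the ubiquitin ligase Nedd4l had 138 and 146 CPM under AngII/PE, against 87.1 and 75.7 CPM under saline. In endothelial-like cells 5 of 9 were higher and 1 lower after carboplatin, and 3 higher and 1 lower after PBS, among them Spp1 at log2 ratios of 2.88 and 3.50. In fibroblast-like cells 6 of 12 were higher and 2 lower after carboplatin, and 5 higher and 2 lower after PBS, led by fibrosis genes that many signals raise (Ccn2 2.63 and 3.57, Col1a1 2.47 and 2.78). In dendritic-cell-like cells 0 of 6 were higher and 1 lower after carboplatin and 0 higher and 2 lower after PBS.

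Several measured features moved with the infusion beside these genes, and their part in the results was not tested. Glucocorticoids and the day's rhythm act on shared genes, and clock genes differed between infused and saline libraries. In macrophage-like cells Arntl, which drives the clock, had 13.9 and 17.4 CPM under AngII/PE after carboplatin and PBS, against 45.9 and 51.1 CPM under saline. Dbp, a clock output gene, had 66.0 and 35.7 CPM under AngII/PE, against 15.0 and 22.1 CPM under saline, and Per1, which both the clock and glucocorticoids raise, 44.0 and 51.2 CPM under AngII/PE, against 29.3 and 29.7 CPM under saline. The infused libraries thus had less Arntl and more Dbp and Per1. Of 11 clock genes there, 4 were higher and 1 lower after carboplatin, and 2 higher and 1 lower after PBS. In endothelial-like cells 5 of 14 were higher and 1 lower in each comparison, with Arntl at log2 ratios of -1.92 and -1.13, in dendritic-cell-like cells 2 of 9 were higher and 2 lower and then 1 and 2, and in fibroblast-like cells 4 of 17 were higher and 4 lower and then 3 and 3, with Arntl higher after PBS (1.24). The hour of killing of each group is not stated in the labels.

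Genes of the early response to tissue dissociation, a sign of handling, were lower under AngII/PE in macrophage-like cells, with 9 of 26 lower and 0 higher after carboplatin (median -0.35) and 14 lower and 0 higher after PBS (median -0.62). Fibroblast-like cells had 19 of 27 lower and 2 higher after carboplatin and 17 lower and 3 higher after PBS, endothelial-like cells 4 of 24 lower and 3 higher and 5 lower and 0 higher, and dendritic-cell-like cells 4 of 26 lower and 2 higher and 2 lower and 3 higher. Genes spanning at least 100 kb, as 5 of the 7 genes do, were also lower: in macrophage-like cells 20.0% of them were called lower after carboplatin and 21.9% after PBS, with medians of -0.28 and -0.29, beside 0.09 and 0.04 for shorter genes. In dendritic-cell-like cells after carboplatin 45.1% of them were lower. Malat1, a nuclear RNA, had 12538 and 13968 CPM in macrophage-like cells under AngII/PE after carboplatin and PBS, against 21110 and 22954 CPM under saline. Among the 5 long genes, Fkbp5 and Sgk1 were above saline in macrophage-like cells in both comparisons, and Zbtb16, Nr3c1 and Nr3c2 were below it. Zbtb16 in both comparisons and Sgk1 after carboplatin stayed within 1.5-fold. The part of gene length in these values was not tested.

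Markers of other cell types were present at levels that depended on the class. Summed endothelial markers in macrophage-like cells were 0.33% or less of their level in endothelial-like cells, and fibroblast markers 0.18% or less of theirs. In endothelial-like cells the summed macrophage markers reached 8.61% and 6.28% of their macrophage-like level in the carboplatin and PBS AngII/PE libraries, against 6.06% and 10.5% in the matching saline libraries, with all 10 markers detected. Cardiomyocyte markers there summed to 129 and 139.8 CPM under AngII/PE after carboplatin and PBS, against 495 and 508 CPM under saline. In dendritic-cell-like cells the macrophage markers reached 14.9% and 14.8% under AngII/PE after carboplatin and PBS, against 25.4% and 21.7% under saline, though some of these markers are known in dendritic cells too. Fibroblast markers in endothelial-like cells were 0.21% and 0.74% of their own level under AngII/PE after carboplatin and PBS, against 0.38% and 0.14% under saline. B-cell markers summed to 17.4% of their B-cell-like level in endothelial-like cells of the carboplatin AngII/PE library and to 17.3% in the PBS AngII/PE library, against 20.4% and 26.6% in the matching saline libraries. In fibroblast-like cells they reached 19.8% and 21.8% under AngII/PE after carboplatin and PBS, against 18.5% and 22.1% under saline. Only 4 of the 8 B-cell markers were detected there in each AngII/PE library, against 7 and 5 under saline, so these sums rest on part of the list. Which of the 8 made up the sums in either class is not given. The sums are therefore not a measure of RNA from B cells. Macrophage markers in fibroblast-like cells were 4.21% and 3.34% of their own level under AngII/PE after carboplatin and PBS, against 2.33% and 2.16% under saline. The part of RNA from other cell types in the results was not tested.

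Likeness was measured as Pearson's r of log2(CPM + 5) over the 16 class-by-library sums, among 7645 genes averaging 20 CPM or more, as a description, since the sums share libraries and classes. Fkbp5 was most like Hax1 (r = 0.902), Mmp14 (0.895) and Tspan31 (0.862). Nr3c1 was most like mt-Nd6 (0.935), Rock2 (0.922) and Scaf11 (0.921), and Nr3c2 most like Spaca6 (0.977), Phactr1 (0.974) and Arhgef12 (0.965). For Sgk1 and Klf9, whose levels mainly separate the classes, the 3 closest genes included Mob2 (0.973), Ppm1f (0.973) and Thsd1 (0.972) for Sgk1, and 2700081O15Rik (0.982) and Tns2 (0.982) for Klf9. Zbtb16 was most like Shc1 (0.846), Lbp (0.829) and Rbm4b (0.819), and Tsc22d3 most like Micos10 (0.823), Eif4ebp1 (0.811) and Glb1 (0.809).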

How the data were processed

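For each library the authors deposited raw UMI counts by gene and barcode, not normalised. The matrices carry Cell Ranger 7.1.0 per the file headers, but the labels' protocols name version 3 and mm10. No source says whether reads in introns were counted. Cells with under 10% mitochondrial counts, under 30000 UMIs and between 500 and 7000 genes were kept, as the submitters state, leaving 17312 of 27968 barcodes (17438 of 38066 are stated). Scrublet (scanpy 1.11.5) marked 49 cells, 0.283%, which is not a usable rate, and none were taken out as doublets. Normalisation was by SCTransform (sctransform 0.4.2, Seurat 5.3.0, R 4.3.3), with 80 components and clusters at resolution 0.6, without integration. Clusters were named from marker lists. Thresholds set after seeing the data left 3 clusters with macrophage markers out of the macrophage-like class. They held 16.2%, 24.3%, 33.6% and 27.4% of kept cells in the carboplatin AngII/PE, PBS AngII/PE, carboplatin saline and PBS saline libraries. Fkbp5 was among the 10 leading genes of 1 of them, a cluster with a median of 4275 UMIs. That cluster held 798 and 684 cells in the carboplatin and PBS AngII/PE libraries, against 36 and 48 in the matching saline libraries. Counts were summed by class and library and scaled to the class total as CPM, with exact Poisson intervals for levels and exact conditional binomial intervals for ratios. Text names all 7 genes, from each list the 4 largest macrophage-like ratios of each AngII/PE comparison, and the 3 most alike genes; other genes were chosen after their values were seen. Some genes that this rule names are not reported here. All genes and lists were chosen with earlier results of these data known. With 1 library per group, animals, sort and library cannot be told apart from treatment. The calculation was tested on simulated data.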

Additional observations from a re-analysis of the deposited data

Results flagged for a closer look

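Each value below is a difference between 2 log2 ratios that pointed opposite ways, each at least 1.5-fold, and none of these differences was tested. Between cell classes, the AngII/PE ratio of Zbtb16 after carboplatin was 1.92 in endothelial-like and -1.21 in dendritic-cell-like cells, a difference of 3.13. The AngII/PE ratio of Sgk1 after PBS was 0.70 in macrophage-like and -0.90 in dendritic-cell-like cells, a difference of 1.60. For fibroblast-like cells it was 0.84, a difference of 1.75 from dendritic-cell-like cells.

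Between the pools of one library, Klf9 in macrophage-like cells had an AngII/PE ratio after PBS of -0.63 in the female-called cells and 1.73 in the male-called cells, a difference of -2.36. In dendritic-cell-like cells after carboplatin, Klf9 had -1.23 in the female-called cells and 1.00 in the male-called cells, a difference of -2.23, from few UMIs. For carboplatin over PBS under saline in endothelial-like cells, Fkbp5 had -1.07 in the female-called cells and 1.00 in the male-called cells, a difference of -2.07. In the same cells and comparison Zbtb16 had -0.82 in the female-called cells and 1.58 in the male-called cells, a difference of -2.40.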

How the results depend on the processing

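No paired analysis was possible because each group has 1 library. The values were read again in 13 alternative settings. These were a cluster resolution of 1.2, clustering on log-normalised values, a gate on marker UMIs, unnamed clusters included, and other filters and scalings. The rest were cells thinned to 2000 UMIs, and female-called or male-called cells alone. For AngII/PE after PBS, 10 values were called higher and 9 lower. Female-called cells gave 4 higher and male-called cells 5 lower. For AngII/PE after carboplatin, 6 values were called higher and 10 lower, and counts by setting are not reported here. Of the 27 values read in both sexes after carboplatin, 5 were at least 1.5-fold higher in both and 7 lower (4 and 5 after PBS). For carboplatin under saline, the 1 higher value became 3 (thinned), 0 (resolution 1.2, log-normalised clustering, marker gate), 2 (female-called) and 5 (male-called), and the 5 lower became 3 (marker gate). For carboplatin under AngII/PE, the 0 higher became 1 (resolution 1.2, log-normalised clustering, marker gate) and 3 (female-called), and the 4 lower became 9 (thinned), 7 (marker gate) and 2 (female-called). Of values called in all cells, directions turned in female-called cells for Klf9 in macrophage-like cells, AngII/PE after PBS (-0.63) and carboplatin under AngII/PE (0.010), for Fkbp5 in dendritic-cell-like cells, AngII/PE after PBS (-0.31) and carboplatin under saline (0.20), and for Fkbp5 in fibroblast-like cells after PBS (-0.37). They turned in thinned cells for Nr3c1 in dendritic-cell-like cells (0.047) and Fkbp5 in fibroblast-like cells (-0.18), both after PBS, and in male-called cells for Nr3c2 in fibroblast-like cells, carboplatin under saline (0.38). Of values within 1.5-fold, Fkbp5 passed that limit the other way in female-called cells for carboplatin under AngII/PE in macrophage-like (0.72, against -0.35 in all cells) and dendritic-cell-like cells (0.85, against -0.52), and under saline in endothelial-like cells (-1.07, against 0.54). So did Tsc22d3 in macrophage-like cells, carboplatin under AngII/PE (0.63, against -0.03), and Klf9 in dendritic-cell-like cells, AngII/PE after carboplatin (-1.23, against 0.01) and after PBS (-1.11, against 0.08). In other settings Zbtb16 in endothelial-like cells under saline (1.58 in male-called cells), Nr3c2 in dendritic-cell-like cells under saline (-0.89 with log-normalised clustering) and Nr3c2 in fibroblast-like cells under AngII/PE (-1.14 thinned) did the same for carboplatin. The cause was not tested. In macrophage-like cells the calls of both receptors under AngII/PE held under all 13 alternatives in both comparisons. Their log2 ratios ran from -1.30 to -0.86 for Nr3c1 and -3.15 to -1.71 for Nr3c2. None of these alternatives held the make-up of that class fixed. Within its clusters, Nr3c1 was called lower in 2 and higher in 1 after carboplatin, and lower in 3 and higher in 0 after PBS. Nr3c2 was lower in 4 and higher in 0 after carboplatin, and lower in 1 and higher in 2 after PBS. Depth limits Nr3c2 in dendritic-cell-like cells, and fibroblast-like and dendritic-cell-like values rest on under 200 cells in most libraries.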
